A study of Mus musculus with 4 samples.

Results

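The 7 genes described here code for Fc receptors and Fc receptor-like proteins of the mouse: Fcgr2b, Fcgr3, Fcgr4, the shared signalling chain Fcer1g, Fcrla, Fcer2a and Fcgrt. They were chosen by name, with earlier results of these data known. Each was read from the brightest probe set over the 4 arrays that the platform annotation ties to that 1 gene symbol. Of the 7 genes, 6 had such a probe set, out of 19938 genes with one on the array, and no value of Fcgrt was analysed here. Each of the 6 had exactly 1 such probe set. The arrays were made from splenic dendritic cells (DC) of the Esam population, sorted from 4 mice with 1 array per mouse. The 2 cKO mice (genotype label DCRunx3 -/-) lacked the transcription factor Runx3 in the DC compartment through Runx3fl/fl alleles and CD11c-Cre, a Cre recombinase driven by the promoter of an integrin gene that DC share with some macrophages and other leukocytes. The 2 wt mice (DCRunx3 +/+) were their littermates, so that arrays cKO 1 and wt 1 came from litter 1 and arrays cKO 2 and wt 2 from litter 2. All 4 mice were 6 weeks old and are labelled male.

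Fc receptors bind the constant part of antibodies and let leukocytes take up or respond to antibody-coated antigen. Activating receptors for IgG signal through an activation motif (ITAM) on the Fcer1g chain, while Fcgr2b, the inhibitory receptor for IgG, carries an inhibitory motif (ITIM) that recruits the lipid phosphatase coded by Inpp5d. DC carry both kinds, and the balance between them is known to set the threshold at which immune complexes activate these cells. Fcgr2b and Fcgr3 code for closely similar extracellular parts, and neither labels nor methods say which bases their probes match.

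The sorted cells carried the transcripts that define them: the array values of the integrin gene Itgax lay at 13.12 and 13.12 in cKO and 13.01 and 12.99 in wt, and those of Esam at 10.60 and 10.64 in cKO and 10.42 and 10.10 in wt. All values are log2 signals after robust multichip averaging (RMA), in which 1 unit is a doubling and 6.5 is the limit the study set for signal above background. The label of sex did not match 2 arrays: Xist, which marks female cells, was at 12.78 in cKO 1 and 12.75 in wt 1 but at 5.19 in cKO 2 and 5.15 in wt 2, and the Y-linked gene Kdm5d showed the opposite order. The 2 arrays of a litter matched each other in this, so the mismatch lay between the litters and not between the genotypes. The Runx3 probe set read 11.47 and 11.45 in cKO and 11.37 and 11.51 in wt, and as neither labels nor methods say whether its probes fall in the floxed stretch, the genotype label stays unchecked by it.

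Of the 7 genes, 5 lie on chromosome 1, and the windows around their start sites are printed here because Runx3 is a DNA-binding factor and the genes lie close together. Each line runs 5′ to 3′ on the gene's strand, from 70 bases before to 30 bases after a start, as given by RefSeq for GRCm38.p6. Capitals mark matches, on either strand, to TGTGGT (the core bound by RUNX factors), to GAGGAA (a core bound by Ets factors such as PU.1) or to GGAANNGAA (an Ets-Irf composite element).
Fcrla, chr1:170927554-170927653, minus strand: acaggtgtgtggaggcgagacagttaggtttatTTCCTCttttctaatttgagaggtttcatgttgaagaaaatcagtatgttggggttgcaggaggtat
Fcgr2b, chr1:170976042-170976141, minus strand: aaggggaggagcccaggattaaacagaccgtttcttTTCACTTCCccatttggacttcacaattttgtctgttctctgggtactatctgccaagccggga
Fcgr4, chr1:171018856-171018955, plus strand: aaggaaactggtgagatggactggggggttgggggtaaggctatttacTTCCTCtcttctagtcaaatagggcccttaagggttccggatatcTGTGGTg
Fcgr3, chr1:171059374-171059473, minus strand: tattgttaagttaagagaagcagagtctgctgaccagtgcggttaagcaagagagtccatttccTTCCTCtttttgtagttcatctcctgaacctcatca
Fcer1g, chr1:171234320-171234419, minus strand: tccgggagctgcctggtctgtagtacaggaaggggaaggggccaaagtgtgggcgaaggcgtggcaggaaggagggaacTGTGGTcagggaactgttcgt

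RefSeq held 10 windows of 300 bases, from 250 before to 50 after a start, for the 7 genes. TGTGGT or its reverse complement stood in 3 of the 10 windows, 1 each of Fcgr4, Fcer1g and Fcer2a, against 16.8% of all 32851 promoter windows of the genome. In Fcgr4 it occurred 2 times, 126 bases before the start and at base 24 after it, and in Fcer2a it lay 238 bases before the start, outside the stretch printed for the chromosome 1 genes. GAGGAA was found in 4 of the 10 windows, against 28.3% of all windows. These were 1 each of Fcrla and Fcgr4 and both windows of Fcgr3, which overlap and share the match. GGAANNGAA was found in 1 window, for Fcgr2b alone among the 7 genes, against 8.24% of all windows. The genes with TGTGGT and those whose values differed most between genotypes overlapped in Fcer2a only, and a match to these letters is not a measured binding site.

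Between the genotypes, Fcgr2b, Fcrla and Fcer2a gave signals at least 2-fold higher in cKO than in wt Esam DC. Fcgr3 was 1.57-fold higher with a wide spread in wt, and Fcgr4 and Fcer1g differed by 1.16-fold and 1.09-fold. In 5 of the 6 measured genes both cKO arrays lay above both wt arrays, a pattern that 16.4% of the 18889 tested probe sets (6.5 or more on at least 1 array) also showed. By the study's thresholds (fold 1.5 or more, and p 0.05 or less before adjustment in a one-way test), 3 of the 6 were higher in cKO, none was lower and 3 did not pass. Those thresholds were met upwards by 0.900% of tested probe sets. The genes were chosen with earlier results of these data known, so these shares are a background and do not test them. Fcer2a reached the limit of 6.5 only in cKO, so it was tested only through its cKO values. Without it 2 of 5 passed, and the other counts of members given here include it. No member, and 0% of all tested probe sets, passed an adjusted p of 0.05 in limma, while 3 of the 6 members had an unadjusted limma p under 0.05, against 4.57% of tested probe sets that had one and were higher in cKO. With the litter as a block, only Fcgr2b met the study's thresholds. Without array cKO 1 or without cKO 2 no member met them, and without wt 1 or without wt 2 only Fcer2a did. Each of these settings leaves the one-way test with 1 residual degree of freedom, where all 4 arrays without a block leave 2.

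**Figure D1:**
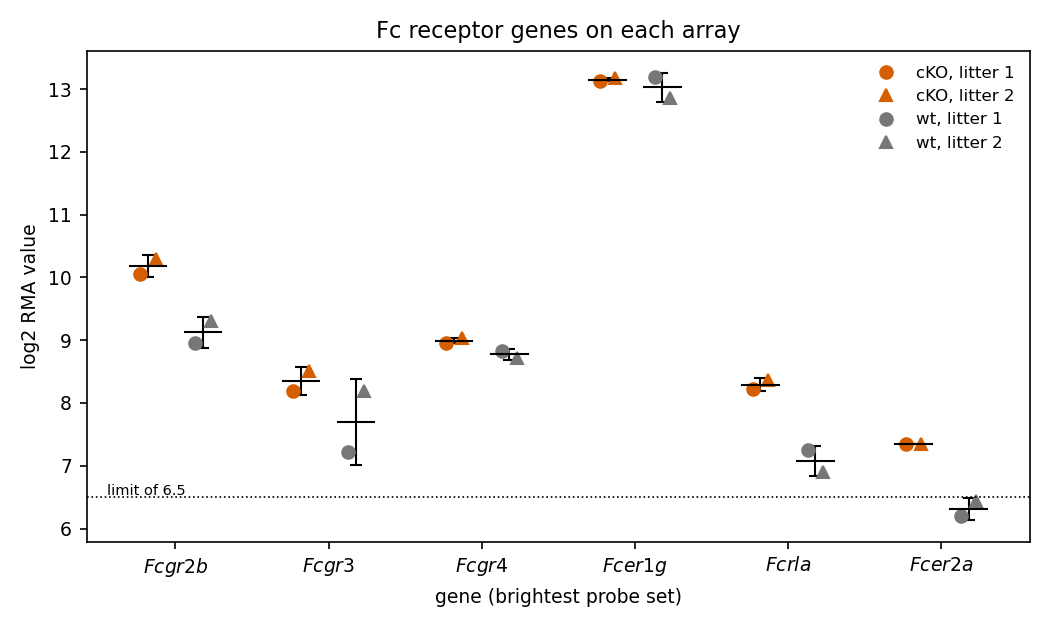
Log2 RMA values (vertical axis) of the 6 measured Fc receptor genes (horizontal axis) on the 2 cKO arrays (orange) and the 2 wt arrays (grey), with circles for litter 1 and triangles for litter 2, and black lines for the mean and SD of each group (n = 2). The cKO values of Fcgr2b, Fcrla and Fcer2a stand clear of the wt values, whereas for Fcgr3 the wt array of litter 2, at 8.19, reaches the lower cKO array.

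Fcgr2b, the inhibitory receptor for IgG, read 10.06 and 10.30 in cKO and 8.95 and 9.30 in wt. Both cKO values were higher than both wt values, by about the same amount in each litter (1.11 in litter 1 and 1.00 in litter 2). The group means were 10.18 ± 0.17 in cKO and 9.13 ± 0.25 in wt (SD, n = 2 each). Fcgr2b was therefore 2.08-fold higher in cKO, a log2 difference of 1.05 with a standard error of 0.17 and a 95% confidence interval of 0.60 to 1.51 (limma, adjusted p = 0.243). Of all tested probe sets, 99.6% had a lower difference than Fcgr2b. In bulk RNA, a larger share of cells that carry a transcript and more of it per cell cannot be told apart, here and for every gene that follows.

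Among the activating receptors, Fcgr3, the low-affinity receptor CD16, read 8.19 and 8.50 in cKO and 7.21 and 8.19 in wt. The lower cKO value was only just above the higher wt value, and the 2 wt mice differed from each other by 0.97, more than the genotypes did on average. The means were 8.35 ± 0.22 in cKO and 7.70 ± 0.69 in wt (SD, n = 2 each), and the log2 difference was 0.65 (standard error 0.36, 95% interval -0.34 to 1.64; limma, adjusted p = 0.688). The difference within litters was 0.98 in litter 1 and 0.32 in litter 2. Its size rested on the wt arrays: it was 0.16 without wt 1 and 1.14 without wt 2. Fcgr3 was thus higher in cKO in both litters, but on average by less than the 2 wt mice differed. Those 2 mice came from different litters and also differed in Xist and Kdm5d. With the litter as a block the standard error was 0.199 (limma, adjusted p = 0.433).

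Fcgr4, an activating receptor for IgG2a and IgG2b that is best known from monocytes, macrophages and neutrophils, read 8.96 and 9.03 in cKO and 8.84 and 8.71 in wt. The cKO values were the higher ones in both litters, yet the gap was small. The log2 difference was 0.22 (standard error 0.09, 95% interval -0.04 to 0.48; limma, adjusted p = 0.588). Fcer1g, the chain with the ITAM that Fcgr3 and Fcgr4 need for surface expression and signalling, read 13.13 and 13.18 in cKO and 13.19 and 12.87 in wt. The groups overlapped for Fcer1g, with wt 1 the highest array of all. Its log2 difference was 0.13 (standard error 0.14, 95% interval -0.25 to 0.50; limma, adjusted p = 0.848), and without wt 2 it changed sign to -0.04.

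The inhibitory receptor was also set against each activating one within the same array, which removes any shift shared by a whole array. Only the change of this within-array difference between the genotypes can be read, since probe sets differ in brightness. For Fcgr2b minus Fcgr4 the log2 values were 1.10 and 1.27 in cKO and 0.12 and 0.59 in wt. The cKO arrays were higher in both litters, and the change was 0.83, a shift of 1.78-fold towards the inhibitory gene, with 0.98 in litter 1 and 0.69 in litter 2 and 0.60 to 1.07 when any 1 array was left out. For Fcgr2b minus Fcgr3 the values were 1.87 and 1.80 in cKO and 1.74 and 1.12 in wt. Here wt 1 lay near the cKO arrays and wt 2 apart from them, so that the change of 0.40 came to 0.13 in litter 1 and 0.68 in litter 2, to 0.72 without wt 1 and to 0.09 without wt 2. Neither change was tested, as both were computed from the same arrays as the single genes.

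**Figure D2:**
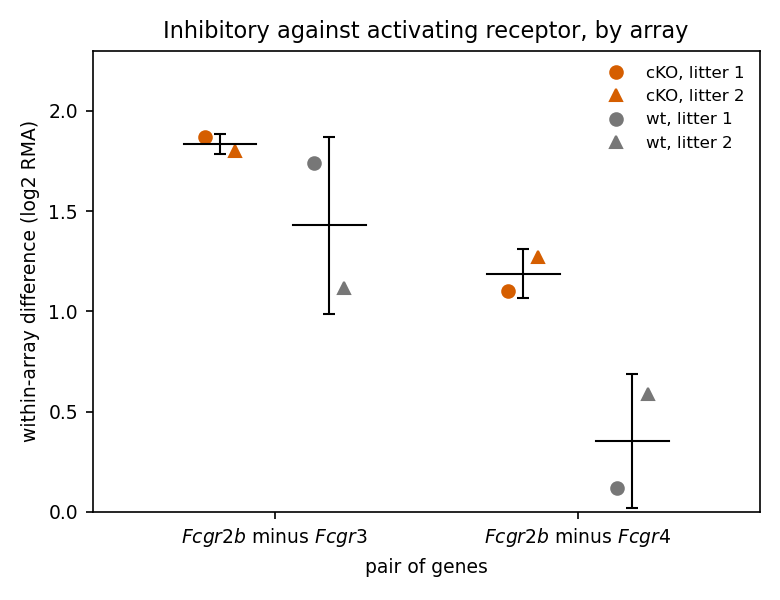
Within-array log2 difference of Fcgr2b minus Fcgr3 and of Fcgr2b minus Fcgr4 (vertical axis, log2 RMA) on the 2 cKO arrays (orange) and the 2 wt arrays (grey), circles for litter 1, triangles for litter 2, black lines for mean and SD (n = 2). For Fcgr4 both cKO arrays, at 1.10 and 1.27, lie above both wt arrays, at 0.12 and 0.59. For Fcgr3 the wt array of litter 1, at 1.74, lies beside the cKO arrays.

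Fcrla, an intracellular Fc receptor-like protein known from B cells, had the largest difference of the 6 genes. It read 8.22 and 8.37 in cKO and 7.25 and 6.91 in wt, with no overlap. The means were 8.29 ± 0.11 in cKO and 7.08 ± 0.24 in wt (SD, n = 2 each), a 2.32-fold higher signal in cKO. The log2 difference was 1.22 (standard error 0.15, 95% interval 0.80 to 1.63; limma, adjusted p = 0.21), with 0.97 in litter 1 and 1.46 in litter 2. Fcrlb, its neighbour on the chromosome and closest relative, stayed under 6.5 on all arrays, at 6.24 and 6.35 in cKO and 6.08 and 6.17 in wt, and was not tested.

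Fcer2a, the low-affinity IgE receptor CD23, a C-type lectin known from B cells, read 7.35 and 7.34 in cKO and 6.19 and 6.44 in wt. Both wt arrays lay under the limit of 6.5, so the wt level is close to background and the fold may be understated. The log2 difference was 1.03, or 2.04-fold higher in cKO (standard error 0.12, 95% interval 0.71 to 1.35; limma, adjusted p = 0.202). It was 1.15 in litter 1 and 0.91 in litter 2.

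**Figure D3:**
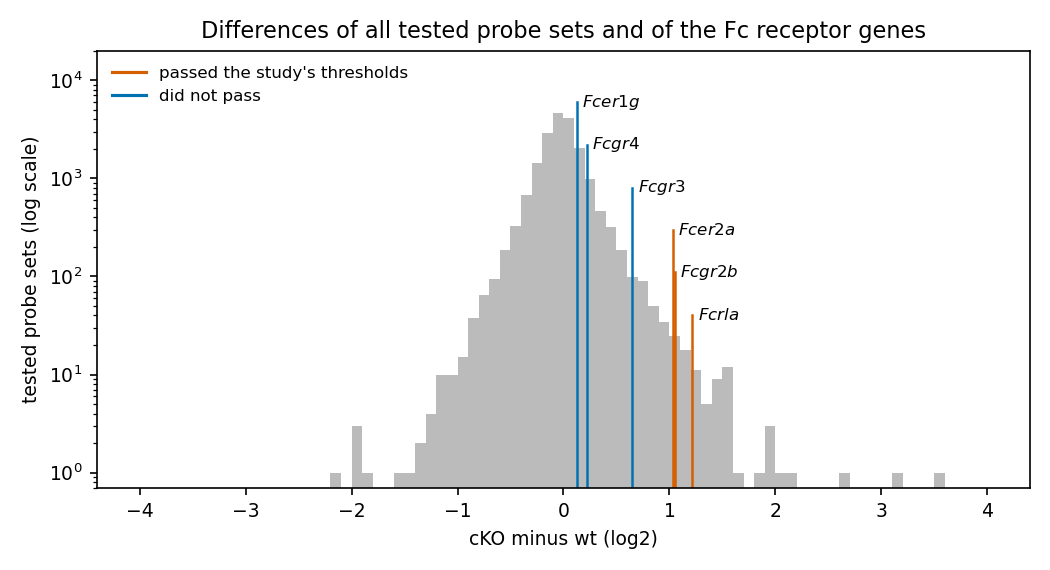
Distribution of the log2 difference, cKO minus wt (horizontal axis), over the 18889 tested probe sets (grey bars, counts on a log axis), with a vertical line for each of the 6 measured Fc receptor genes, orange where it passed the study's thresholds and blue where it did not. Fcgr2b, Fcrla and Fcer2a lie in the right tail between 1.03 and 1.22, and the median of all tested probe sets is -0.02.

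The adjusted p-values depended on the pairing of the arrays together with the choice of probe sets. When only the brightest single-symbol probe set of each of 9894 genes was fitted with the litter as a block, a choice made after seeing the data, the limma adjusted p was 0.00545 for Fcgr2b, 0.0116 for Fcrla and 0.00806 for Fcer2a, but 0.0995 for Fcgr3, 0.296 for Fcgr4 and 0.639 for Fcer1g. In that fit 2.91% of all genes were called higher in cKO. Over the 13 alternatives run, the adjusted p of Fcgr2b lay between 0.00545 and 0.899, that of Fcrla between 0.0116 and 0.898 and that of Fcer2a between 0.00806 and 0.896. For Fcgr3 it lay between 0.0995 and 1, for Fcgr4 between 0.292 and 1, and for Fcer1g between 0.278 and 1. The log2 differences moved less: leaving out any 1 array kept Fcgr2b between 0.88 and 1.23, Fcrla between 1.05 and 1.39 and Fcer2a between 0.91 and 1.15.

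Other genes of Fc, Fc receptor-like and immunoglobulin receptors were mostly at background. Of 12 listed, 11 had a probe set and 7 stayed under 6.5 on all arrays: the high-affinity IgG receptor Fcgr1, the IgE receptor chains Fcer1a and Ms4a2, and Fcamr, Fcrlb, Fcrls and Pigr. None of the 4 tested met the study's thresholds, which only 267 of all 18889 tested probe sets met. Fcrl1, an Fc receptor-like protein of B cells, read 11.11 and 11.04 in cKO and 10.54 and 10.63 in wt, a log2 difference of 0.49 with no overlap (limma, adjusted p = 0.291). Fcmr, the IgM receptor, differed by 0.51 (limma, adjusted p = 0.552) but reached 6.5 only on array cKO 1. Fcrl5 differed by 0.13 (limma, adjusted p = 0.965). Trim21, an antibody receptor of the cytosol, was the 1 gene of the 4 with lower values in cKO, with a log2 difference of -0.36 (limma, adjusted p = 0.44).

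The signalling genes below the receptors had small differences. Of 19 tested genes of ITAM signalling, none met the study's thresholds, which only 267 of all 18889 tested probe sets met. Positive differences were seen in 12 and negative ones in 7. The median log2 difference was 0.04, against -0.02 over all tested probe sets and 0.84 over the 6 Fc receptor genes. The extremes were the adaptors Lat2, with 10.00 and 9.88 in cKO and 10.34 and 10.32 in wt (limma, adjusted p = 0.383), and Blnk, with a log2 difference of 0.37 (limma, adjusted p = 0.631). Card9, the adaptor that links Syk to NF-kB, differed by -0.26 and the exchange factor Vav1 by 0.15. Syk, the kinase that binds phosphorylated ITAMs, read 11.02 and 11.05 in cKO and 10.93 and 11.07 in wt, so the groups overlapped. Of the 19, 7 had both cKO arrays above both wt arrays, Blnk among them, against 16.4% of all tested probe sets. Both lay below for Btk, Vav3, Lat2, Pik3cg, Grb2 and Card9, as they did for 4478 of all 18889 tested.

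None of 10 tested genes of the inhibitory pathway below Fcgr2b met the study's thresholds, which only 267 of all 18889 tested probe sets met. Of the 10, 3 had positive and 7 negative differences, and the median was -0.02. Inpp5d, the phosphatase SHIP1 that the ITIM of Fcgr2b recruits, read 12.23 and 12.26 in cKO and 12.23 and 12.26 in wt. The phosphatase Ptpn6 (SHP-1) differed by -0.02 on the log2 scale with a 95% interval of -0.25 to 0.21. The cKO and wt values of Inpp5d and Ptpn6 overlapped. Of the 10 tested genes, 2 had both cKO arrays above both wt arrays, against 16.4% of all tested probe sets. Both lay below for the phosphatase genes Inppl1 and Ptpn11, as they did for 4478 of all 18889 tested. Pag1, an adaptor that anchors the kinase Csk, had the largest difference of the list, with 8.57 and 8.51 in cKO and 8.08 and 8.16 in wt (limma, adjusted p = 0.329). Dok3, an inhibitory adaptor, differed by 0.26, Inppl1 by -0.07 and the ubiquitin ligase gene Cbl by -0.08.

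For the handling of antibody-bound antigen after uptake, in which Fcgrt, the neonatal Fc receptor, takes part together with beta-2 microglobulin, 13 listed partner and endolysosomal genes were tested. None met the study's thresholds, which only 267 of all 18889 tested probe sets met. Of the 13, 9 had positive and 4 negative differences, and the median was 0.13. Of the 13, 7 had both cKO arrays above both wt arrays, against 16.4% of all tested probe sets, and Ncf1 had both below. The proteases Ctsl, Lgmn and Ctsb and the lysosomal membrane protein gene Lamp1 had log2 differences of 0.52, 0.35, 0.28 and 0.51, with limma adjusted p between 0.275 and 0.517. B2m, the chain that Fcgrt pairs with, read 14.14 and 14.09 in cKO and 14.06 and 14.11 in wt, and the groups overlapped.

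Few genes next to the 7 on their chromosomes could be tested. Of 24 different neighbours, at most 2 on each side of each gene in RefSeq order, 11 had a single-symbol probe set, 5 of these stayed under 6.5 on all arrays, and 0 of the 6 tested met the study's thresholds, which 0.900% of all tested probe sets met upwards. Beside Fcrla, the phosphatase gene Dusp12 differed by -0.09. Beside Fcer2a, the trafficking gene Trappc5 differed by -0.17 and the lectin gene Clec4g by -0.08, and beside Fcer1g, the mitochondrial import gene Tomm40l differed by -0.07.

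By the smallest Euclidean distance of log2 values centred on each gene's own mean over the 4 arrays, taken over 9894 genes, the 3 patterns most like that of Fcgr2b were those of Il13ra1 (distance 0.114), a chain of the IL-13 receptor, the unnamed gene 1700009J07Rik (0.15) and the chemokine receptor gene Cxcr3 (0.166). Their log2 differences were 1.14, 0.98 and 1.02. The 3 genes nearest to Fcgr3 were the transcription factor gene Maf (0.144), the adhesion molecule gene Vcam1 (0.181) and the ficolin gene Fcna (0.207). Vcam1 was also on the list of macrophage markers, and all 3 had wt 2 well above wt 1, as Fcgr3 did. With 4 arrays, such distances describe these mice only.

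Transcripts that mark other cells with Fc receptors were read on the same arrays. Of 14 macrophage markers, 12 were tested and all 12 had positive differences, with a median of 0.75. Of these, 10 had both cKO arrays above both wt arrays, against 16.4% of all tested probe sets. The study's thresholds, met upwards by 0.900% of tested probe sets, were met by 2 (C1qb and Spic, named after their values were seen). Siglec1 reached 6.5 only in cKO. The mean level of the 12 was 9.49 and 9.65 in cKO and 8.59 and 9.15 in wt, and Marco and Cd163 stayed under 6.5 on all arrays. Between the wt mice, wt 2 exceeded wt 1 in 9 of 12 macrophage markers. The median over the 12 was 0.58 (range -0.23 to 1.37), against -0.05 over all tested probe sets, 0.97 for Fcgr3 and 0.35 for Fcgr2b. C1qb was near level, at 9.64 on wt 1 and 9.66 on wt 2, and Spic fell from 9.70 to 9.47. The 2 wt mice differed in litter and in Xist and Kdm5d, so litter and sex cannot be told apart in this contrast. Adgre1, the macrophage antigen F4/80, differed by 0.16 between the genotypes, Hmox1, which degrades heme, by 0.68, and Vcam1 by 0.73. Most macrophage markers were thus higher where Fcgr3 was higher, both between the genotypes and between the wt mice, and their part in the Fc receptor values was not tested.

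**Figure D4:**
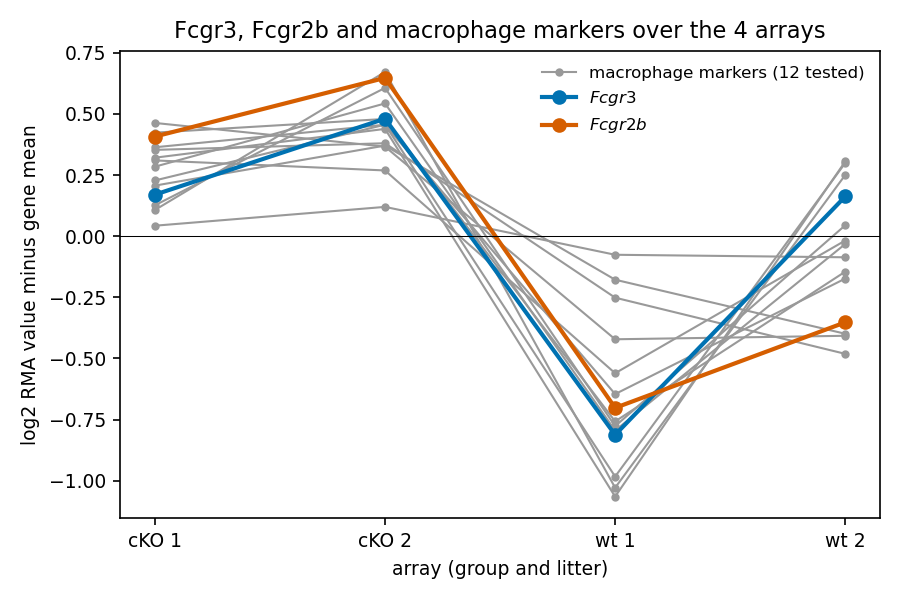
Log2 RMA values minus each gene's mean over the 4 arrays (vertical axis) on the 2 cKO and the 2 wt arrays (horizontal axis) for Fcgr3 (blue), Fcgr2b (orange) and the 12 tested macrophage markers (grey), with lines joining the arrays for each gene. Fcgr3, Fcgr2b and most markers are lower on wt 1 than on wt 2. Fcgr2b is below its mean on both wt arrays, as are several markers, among them C1qb and Spic, and Fcgr3 is below its mean on wt 1 only.

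Most monocyte and cDC1 markers also had higher values in cKO. The cells had been sorted as positive for CD11c and MHC class II and then by Esam, CD4 and CD8, a gate meant to leave out cDC1 that carry CD8 and most monocytes. All 8 tested monocyte markers had positive differences (median 0.51). Ccr2, Ace and Treml4 met the study's thresholds, which 0.900% of all tested probe sets met upwards. Ccr2 reached 6.5 only in cKO, at 6.86 and 6.67 against 6.18 and 6.03 in wt. When a mean of 6.5 or more was required, 2 monocyte markers met the thresholds. The mean level of these 8 was 9.88 and 9.94 in cKO and 9.22 and 9.24 in wt. Of the 7 cDC1 markers (cDC1 are the DC known for cross-presentation), 5 met the thresholds and the median was 1.23, with Xcr1, Clec9a and Cd8a 2.64-fold, 2.76-fold and 2.76-fold higher in cKO. Batf3, a transcription factor gene that cDC1 need, went the other way, with 9.12 and 9.11 in cKO and 9.28 and 9.53 in wt. The mean level of the 7 was 9.89 and 9.90 in cKO and 9.02 and 8.88 in wt. No array of one genotype reached the other in these 2 list means, and their part in the Fc receptor values was not tested either.

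B cell markers were read beside Fcrla and Fcer2a, which are both known from B cells. Of 16 listed, 14 had a probe set, 11 were tested and none met the study's thresholds, which only 267 of all 18889 tested probe sets met. There were 7 positive and 4 negative differences, with a median of 0.30 (range -1.40 to 0.51). Of the 11, 5 had both cKO arrays above both wt arrays (Cd79a, Cd79b, Fcrl1, Fcmr and Ly6d), against 16.4% of all tested probe sets. The other way, 2 had both below (Blk and Cd22), against 4478 of all 18889 tested. Fcmr reached 6.5 only on array cKO 1 and Blk only in wt. The mean level of the 11 was 8.71 and 8.59 in cKO and 8.62 and 8.55 in wt. These means include Blk, at 6.41 and 6.42 in cKO and 7.40 and 8.22 in wt, which lowers the cKO means against the wt means. Pax5, Ebf1 and Vpreb3 were under 6.5 on all arrays, where all 3 also read higher in cKO without overlap. Cd79b, a chain of the B cell receptor, read 11.25 and 11.06 in cKO and 11.00 and 10.31 in wt, and Cd22 differed by -0.34. The lowest difference was that of the kinase gene Blk, which like Cd79a and Ly6d is named after its values were seen. The part of B cells in the values of Fcrla and Fcer2a was not tested, and Fcrl1 and Fcmr are also on the list of other Fc and immunoglobulin receptors.

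Markers of other Fc receptor-bearing cells were mostly at background. Of 7 mast cell and basophil markers only Hdc was tested, all 8 neutrophil markers stayed under 6.5 on all arrays, and 2 of 7 NK cell markers were tested. Hdc reached 6.5 only in cKO, and the NK cell marker Nkg7 only on array cKO 1. No gene of these lists passed the study's thresholds, which 0.900% of all tested probe sets met upwards. Of 5 tested markers of plasmacytoid DC, which carry Fc receptors too, 4 had positive differences and Cox6a2 alone met the thresholds, with a mean level of the 5 of 8.51 and 8.67 in cKO and 7.68 and 7.76 in wt. Their part in the Fc receptor values was not tested.

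**Figure D5:**
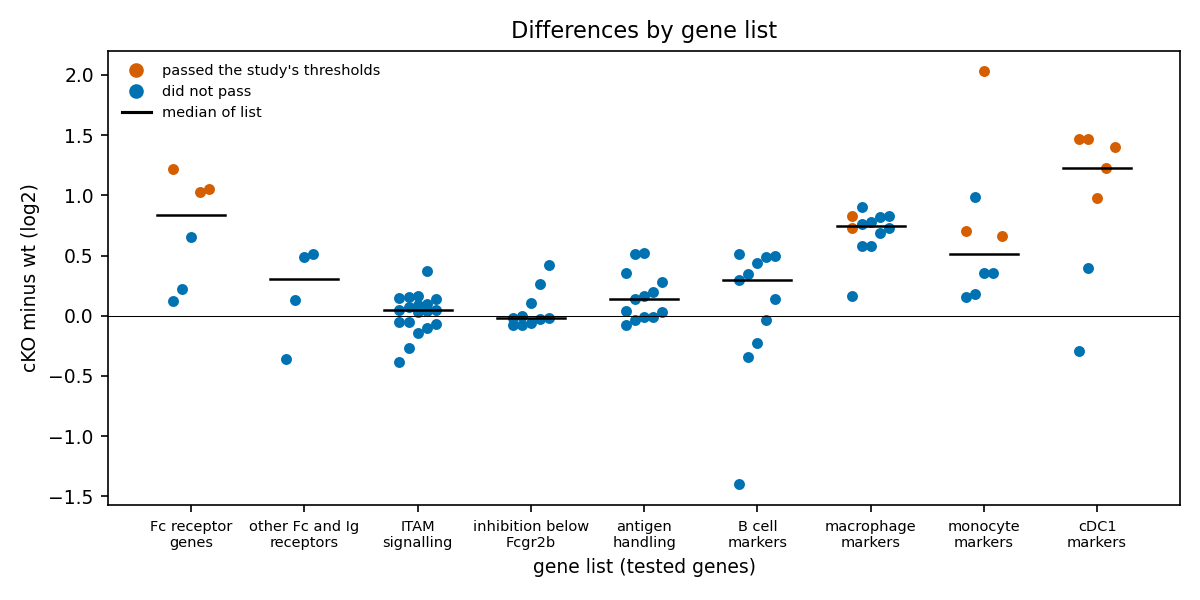
Log2 difference, cKO minus wt (vertical axis), of each tested gene in the Fc receptor set, the 4 pathway lists and 4 marker lists (horizontal axis), orange where the gene passed the study's thresholds and blue where it did not, with a black bar for the median of each list. The signalling and inhibition lists centre near 0 (medians 0.04 and -0.02), while the Fc receptor genes (0.84), macrophage markers (0.75) and cDC1 markers (1.23) lie above it.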

How the data were processed

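RNA of sorted cells was hybridised to 4 Affymetrix arrays. The authors deposited log2 values, made with RMA and GC correction in Partek and thus already normalized between arrays. The processing notes name mm9. The study's methods name an exon 1.0 ST array, while the platform annotation belongs to the gene-level 1.0 ST design, and the methods differ from the labels on the RNA kit. Of 35399 probe sets, 21789 carried 1 gene symbol, 1621 several and 11989 none that was listed. Probe sets at 6.5 or more on at least 1 array (18889) were tested with limma 3.58.1 in R 4.3.3, two-sided, with Benjamini-Hochberg adjustment over all of them, and with 2 residual and 2.2 prior degrees of freedom. The methods' one-way test gave counts at the study's thresholds. Array medians were 6.581 to 6.62, and correlations between arrays were 0.9922 to 0.9956 over probe sets (not independent of each other). At most 11 values were identical between 2 arrays. The number of arrays limits the precision.

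Replicate numbers mark litters per the labels, so they pair the samples, and deviations within a litter correlated at r = 0.266. A fit with the litter as a block was run beside the unpaired one, which follows the study's methods. Each array was also left out, and normalization, filter and probe set choice were varied. The procedure was tested on simulated data. Named genes are the 7 members, their neighbours, up to 4 genes of each pathway list by smallest p, up to 3 of each marker list by mean level, and the 3 genes nearest to Fcgr2b and to Fcgr3, and others are marked or stand for a count of a list. Members and lists were chosen with earlier results of these data known. Probe-level files were not used here. Promoter windows and gene order are those of RefSeq (GRCm38.p6).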

Additional observations from a re-analysis of the deposited data

How the results depend on the processing

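The count of probe sets with a limma adjusted p under 0.05 was 0 of 18889 (1771 had an unadjusted p under 0.05), and became 1 after quantile normalization, 2 with an intensity trend, 42 with 1 probe set per gene and 409 with 1 probe set per gene and the replicate block (litter). The count at the study's thresholds was 267, against 135 with the replicate block, 493 when the p before adjustment came from limma and not from the one-way test (chosen after seeing the data), 509 when limma's p was used with an intensity trend as well, and 112 to 280 when 1 array was left out. The Fc receptor genes among them numbered 3, against 1 with the replicate block, which ended the calls of Fcrla and Fcer2a at these thresholds, and 0 to 1 when 1 array was left out, where fewer samples leave 1 residual degree of freedom. Over 78 values of the 6 genes under alternatives, 74 kept their direction and side of the threshold. The exceptions were Fcgr2b, Fcrla and Fcer2a, which passed an adjusted p of 0.05 with 1 probe set per gene and the replicate block, and Fcer1g, whose difference turned to -0.0357 without wt 2 and was 0.2879 without wt 1. At an adjusted p of 0.05, the replicate block over all tested probe sets changed no call of the 6 genes. Of 143 list counts under alternatives, 31 moved by over 1.5 times, 1 of them in a pathway list. The mean over all probe sets of a gene gave no separate value, as each gene had 1. With 2 arrays a group, no array could be tested as standing apart from its group, and signals near 6.5, as for Fcer2a in wt, limit the fold.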
